A study of Mus musculus with 4 samples.

Results

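Microglia, the resident macrophages of brain tissue, were taken from single-cell transcriptomes of the mouse ventromedial prefrontal cortex (vmPFC). A cell was counted as a microglial cell when it was absent from the deposited list of excitatory neurons, had passed the limits on genes, UMIs (unique molecular identifiers, each counting 1 captured RNA molecule) and mitochondrial UMIs, and carried at least 5 UMIs over the 4 markers Cx3cr1, P2ry12, Tmem119 and Csf1r. Such a cell could hold at most 2 UMIs over the neuronal genes Slc17a7, Gad1 and Gad2, at most 2 of the endothelial gene Cldn5 and at most 2 over the myelin genes Mog and Mag. Cells were thus selected on their measured UMIs of these genes. The rule found 2949 microglia, 1054, 957 and 938 in unsorted replicates 1, 2 and 3, among 21263 cells that passed the limits in all 4 libraries of the series. They are compared with the 8758 other cells of the same 3 libraries that were absent from the list of neurons (3142, 2888 and 2728 per library).

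The animals were male C57BL/6 mice injected at 8 weeks of age. All of them had received rAAV-EGFP-BARCODE viruses in 5 regions that the vmPFC projects to (lateral hypothalamus, basolateral amygdala, mediodorsal thalamus, dorsomedial striatum and agranular insula), so no uninjected animal serves as a control. There were 3 unsorted libraries from mice 1, 2 and 3, and 1 library of FAC-sorted cells pooled from 3 other mice. The labels call all samples retrograde labeled vmPFC neurons, whereas the unsorted libraries hold the glial and vascular cells of the dissected prelimbic and infralimbic areas as well. Slices were warmed with the glutamate receptor antagonists CNQX and D-AP5 and digested with papain before droplets were made, and no tissue without this treatment was measured.

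Microglia derive from the yolk sac and survey the parenchyma with motile processes. They sense nucleotides, complement and lipids through surface receptors, engulf debris and synaptic material, and degrade it in lysosomes. In the healthy brain they keep a state marked by P2ry12, Tmem119 and Sall1 that depends on CSF1 receptor and TGF-beta signals, and on injury or during tissue dissociation they can switch on cytokine and immediate early genes. Macrophages at the borders of the brain, around vessels and in the meninges, share Cx3cr1, Csf1r and the C1q genes with them and carry Mrc1, Pf4, Lyve1 and Cd163.

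The 3 unsorted libraries held 83065993 to 87841541 UMIs and the sorted library 54749198 UMIs. The microglia contributed 4059896 to 4460313 UMIs per library. The median microglial cell had 4251 UMIs, 1655 genes and 7.15% mitochondrial UMIs, against 4381 UMIs and 2110 genes for the other cells outside the neuron list. Between 11 and 30 cell barcodes were shared by any pair of unsorted libraries, and 1 microglial barcode occurred in both of replicates 2 and 3.

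The share of microglia was nearly the same in the 3 mice. They made up 15.03%, 15.12% and 15.30% of the filtered unsorted cells, or 15.2% ± 0.140 (SD, n = 3). Of the cells outside the neuron list they were 25.2% ± 0.355 (SD, n = 3). These are shares of the cells recovered after dissociation and not of the cells in the tissue.

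The marker genes chose the cells, so their levels are given as a description. In CPM, the UMIs of a gene per 1000000 UMIs summed over the microglia of a library, Cx3cr1, the fractalkine receptor, stood at 2498, 2452 and 2557 in replicates 1, 2 and 3. P2ry12, an ADP receptor, stood at 1740, 1826 and 1689 CPM, and Tmem119, a surface protein of homeostatic microglia, at 1311, 1290 and 1261 CPM. Csf1r, the receptor for CSF1 and IL-34, stood at 1997, 2069 and 2140 CPM. Of the 2949 cells, 2774 carried all 4 transcripts, with Csf1r in 99.6% and Tmem119 in 96.0% of cells. Summed over the 4 markers, the level was 7546 to 7647 CPM in microglia and 93.9 to 121 CPM in the other cells. The name was also checked on genes outside the rule, and 2948 of the 2949 cells held at least 5 UMIs over C1qa, C1qb, C1qc and Ctss.

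Few cells lay near the limit of 5 marker UMIs. There were 26 cells at 5 and 19 at 6 marker UMIs, with medians of 2038 and 1479 UMIs in all. Just outside, 28 cells had 4 and 24 had 3 marker UMIs, with medians of 1441.5 and 1783 UMIs. Of the cells with 4, 96.4% held at least 5 UMIs over the same C1q and Ctss genes. The caps on neuronal genes, Cldn5 and Mog with Mag left out 124, 32 and 33 cells that had enough marker UMIs, and such cells stayed among the other cells. Those cells, and cells with fewer markers, add microglial transcripts to the other cells, where C1qa stood at 76.4 to 102 CPM against 9.59 CPM in gated endothelial cells.

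No doublet caller was run, so transcripts of other cell types were counted instead. At least 5 UMIs of another type's marker set were found in 64 microglia (2.17%; 29, 14 and 21 per library). Precursor markers Pdgfra and Cspg4 accounted for 24 of these cells, mural markers for 14, the neuronal genes Snap25 and Syt1 for 14, oligodendrocyte markers for 11, astrocyte markers Aqp4, Gja1 and Aldh1l1 for 8, lymphocyte markers for 1 and endothelial markers for 0. Slc1a3, a glutamate transporter known from astrocytes, was detected more widely, at 270, 253 and 266 CPM in microglia against a mean of 5042 CPM in gated astrocytes.

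Against the other cells, 3163 of 14969 tested genes were higher in microglia (21.1%) and 4950 were lower (33.1%) (edgeR, with adjusted p below 0.05 and a change of 1 or more on the log2 scale). The genes that the rule reads were not tested, and genes of the same cell type follow the rule, so these calls describe the gated cells and do not test their name. A high share of all genes passed, and a count within a gene list is read against it. Fold changes were scaled by TMM factors, which allow for the large part of microglial UMIs taken by a few genes. With library totals in place of the factors the median log2 fold change of all genes moved from -0.13 to -0.97, and the calls became 1828 higher and 7327 lower, so that 20.0% in place of 39.0% of the called genes were higher. Small fold changes therefore depend on the scaling, and several members whose sign flips are named where they occur.

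The highest transcript outside the rule was Cst3, which encodes cystatin C, a secreted inhibitor of cysteine proteases. It stood at 52464, 51023 and 51948 CPM in the 3 libraries, against 1705, 1516 and 1663 CPM in the other cells. The groups were far apart, with a log2 fold change of 5.84 ± 0.03 (SE, edgeR adjusted p = 2.8e-31). The gene lies on chromosome 2 (148871722 to 148875692, GRCm38). Astrocytes held the next level of the gated groups, with a mean of 12195 CPM.

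All 16 members of the homeostatic list rose, with a median log2 fold change of 6.97 against -0.13 over all tested genes. Siglech, a sialic acid-binding receptor, stood at 1047, 1081 and 1081 CPM against 11.7 to 14.2 CPM in the other cells. On the log2 scale it was 7.22 ± 0.05 higher (SE, edgeR adjusted p = 1.03e-28). Sparc, a matricellular protein, had a mean of 2477 CPM and was also present in endothelial cells at 1154 CPM. P2ry13, a second ADP receptor, had the highest fold change of the list against the other cells, 7.29 on the log2 scale. The other cells hold some microglial transcripts, as given above. Against gated astrocytes, oligodendrocytes and endothelial cells the list median was 9.13, 9.26 and 9.37. Sall1, the zinc finger factor that maintains microglial identity, stood at 310, 300 and 278 CPM against 22.7 to 23.2 CPM.

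The lineage transcription factors rose as well, 16 of 16 tested, with a median of 3.42. Spi1, which encodes the myeloid master regulator PU.1, stood at 369, 377 and 349 CPM against 4.88 to 6.90 CPM in the other cells. Cebpb, a factor of myeloid and inflammatory genes, had a mean of 805 CPM. Mef2c was the member with the smallest change, 1.36 on the log2 scale, and its mean of 725 CPM was below the 1434 CPM of excitatory neurons. With library totals the count fell to 14 of 16.

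**Figure D1:**
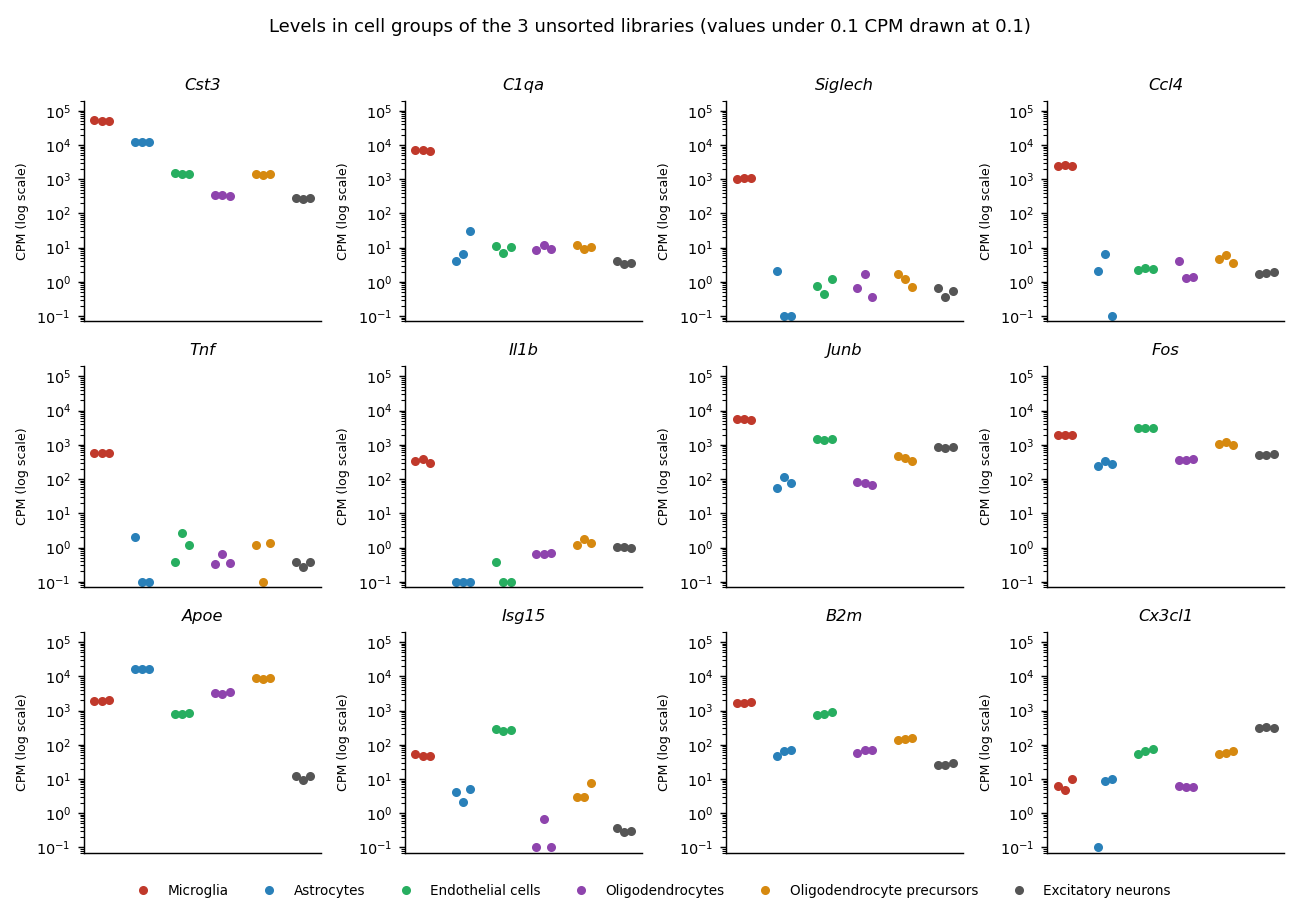
Level of 12 genes in microglia, gated astrocytes, endothelial cells, oligodendrocytes, oligodendrocyte precursors and excitatory neurons, in CPM on a log axis, with 1 point per unsorted library. Cst3, C1qa, Siglech, Ccl4, Tnf and Il1b were highest in microglia, Apoe was highest in astrocytes, Fos and Isg15 in endothelial cells and Cx3cl1 in excitatory neurons.

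Complement genes divided by component. The 3 chains of C1q, which start the classical pathway, were among the most abundant transcripts. C1qa, on chromosome 4 (136895917 to 136898803), stood at 7206, 7051 and 6908 CPM, and C1qb at 7338, 7297 and 6951 CPM. C1qc followed at 4517, 4436 and 4562 CPM. The log2 fold change of C1qa was 7.15 ± 0.05 (SE, edgeR adjusted p = 1.03e-28), and the 3 chains lay between 7.01 and 7.15. The receptor subunits Itgam and Itgb2, which form complement receptor 3, had means of 393 and 151 CPM, C3ar1 222 CPM and C5ar1 108 CPM. C3 itself had 0, 0 and 1.20 CPM and Cfb had 0 in all 3 libraries, and neither passed the filter on low counts. Of the 14 members 12 were tested, 10 were higher and 1, the regulator Cd55 with 8 UMIs in 6 cells, was lower, a call that DESeq2 did not make (adjusted p = 0.0691). C4b was not called, with a log2 fold change of 0.65 that turned to -0.20 with library totals.

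Receptors and adaptors of phagocytosis rose in 19 of 20 cases, with a median of 6.20. Trem2, a lipid-sensing receptor, stood at 1978, 1998 and 1960 CPM, and its signalling adaptor Tyrobp at 2407, 2526 and 2593 CPM. Mertk and Axl, receptors for phosphatidylserine bridged by Gas6 and Pros1, went separate ways. Mertk stood at 292, 283 and 280 CPM, below the 393 CPM of gated astrocytes. On the TMM scale the log2 difference from astrocytes was 0.22 ± 0.07, of the other sign and under the limit for a call. Axl stood at 9.19, 7.88 and 6.71 CPM, below the 19.6 to 21.6 CPM of the other cells, with a log2 fold change of -0.53 that was not called.

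Of 20 lysosomal genes 19 rose, with a median of 3.45. Ctsd, an aspartic protease, had a mean of 4940 CPM and Lgmn, the asparaginyl endopeptidase, 2535 CPM. Ctss, a cysteine protease, stood at 3145, 3384 and 3405 CPM with a log2 fold change of 7.26. Npc1, the cholesterol exporter, was the member not called, at 102 CPM in microglia and 98.6 CPM in the other cells. Pattern recognition genes rose in 17 of 19 cases with a median of 5.95, led by Ly86 and Unc93b1 at means of 1112 and 638 CPM. Actin and motility genes rose in 16 of 16, with Tmsb4x, an actin monomer binder, at 18522, 18735 and 18147 CPM. Ion channel genes rose in 10 of 11 with a median of 2.39, and Clic1 and Hvcn1, a chloride channel protein and the proton channel, had means of 485 and 81.6 CPM.

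Purinergic genes split evenly, 7 higher and 7 lower of 14. The higher members included Gpr34, a lysophosphatidylserine receptor, with a mean of 1273 CPM, Entpd1, which removes phosphates from ATP, with 227 CPM, and P2ry6, a UDP receptor, with 133 CPM. Nt5e, which turns AMP into adenosine, had no UMI in any microglial library. It was at least 14.1-fold lower than in the other cells, set against 3 counts over the group, in CPM without TMM factors. Entpd3, also without a UMI, was at least 10.8-fold lower on the same basis.

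Outside the lists the most raised gene at 100 CPM or more was Gpr183, an oxysterol receptor, at 170, 185 and 186 CPM against 1.89 to 2.59 CPM. Tnfaip8l2, Susd3, Mpeg1, Cd53, Fgd2, Pld4, Cd84, Nckap1l and Gna15 were also among the first 12, the last of them with a log2 fold change of 6.87. The most lowered were Adgrl4, Tac2, Foxq1, Tmem88b and Adgrf5, of which Adgrl4 stood at 0.162 CPM against 119 CPM and Tac2 at 0.399 against 181 CPM.

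**Figure D2:**
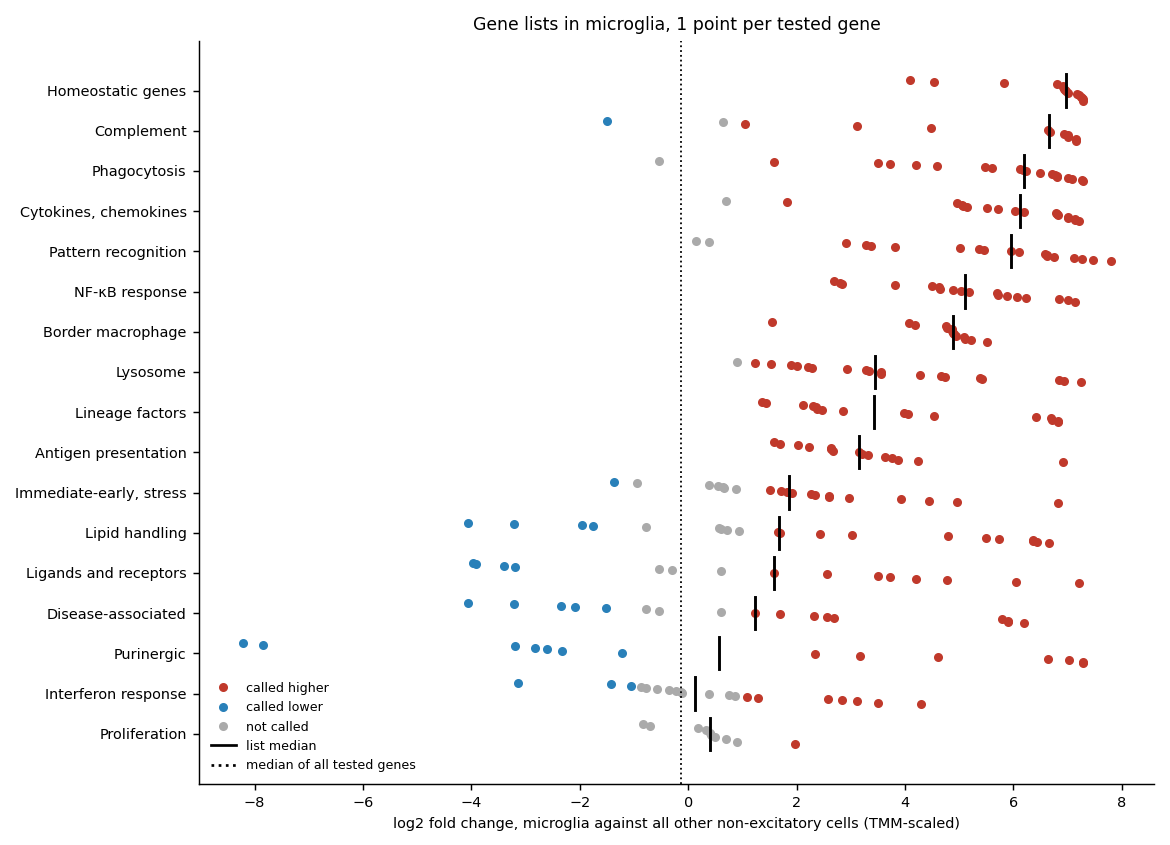
Log2 fold change of each tested list member, microglia against the other cells outside the neuron list, with 1 point per gene, colour for the call, a bar for the list median and a dotted line for the median of all tested genes. The homeostatic, complement and phagocytosis medians lay above 6, and the interferon, purinergic and proliferation medians lay below 1.

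Cytokine and chemokine genes were expressed at high levels. Of 20 members 18 were tested, 17 rose and none was lower, with a median of 6.12. Ccl4 stood at 2370, 2539 and 2364 CPM against 40.4, 20.4 and 27.7 CPM in the other cells, a log2 fold change of 7.22 ± 0.11 (SE, edgeR adjusted p = 4.47e-24). Ccl3 stood at 1561, 1697 and 1559 CPM against 14.7 to 27.8 CPM. Both encode chemokines and lie next to each other on chromosome 11 (83662584 to 83664683 and 83647844 to 83649355). Tnf, on chromosome 17 (35199381 to 35202007), stood at 577, 568 and 582 CPM against 8.65, 8.31 and 7.10 CPM, a log2 fold change of 7.003 ± 0.06 (SE, edgeR adjusted p = 3.76e-28). For each of these 3 genes every microglial library lay above every library of the other cells.

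The interleukin-1 genes were also high. Il1a stood at 561, 575 and 535 CPM and Il1b at 340, 384 and 287 CPM, both against less than 10 CPM in the other cells. Il1b varied more between libraries than Tnf, with an SD of 48.1 against 7.25 CPM. Il6 was rare, at 12.6, 11.1 and 12.5 CPM with 153 UMIs in 140 cells. Il10 had 12 UMIs in 6 cells of replicate 1 and none in the others, and with Il1rn it did not pass the filter. Il18 was the tested member not called, with 40.9 CPM in microglia and 307 CPM in astrocytes, and its log2 fold change of 0.71 turned to -0.14 with library totals. Cxcl1, at 7.62, 14.04 and 5.75 CPM, was called higher, but its log2 fold change was -0.35 when only microglia without border macrophage transcripts, described at the end, were summed. Tgfb1, an anti-inflammatory cytokine that maintains microglia, had a mean of 402 CPM.

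The Nfkbia group, which holds NF-kappaB pathway members, inhibitors that the pathway induces and other response genes such as Cd83, rose in 18 of 18 cases with a median of 5.12. Nfkbia, which encodes IkappaB-alpha, stood at 3088, 3091 and 2909 CPM against 177 to 190 CPM. Zfp36, which destabilises cytokine mRNA, had a mean of 3142 CPM, Cd83 1056 CPM and Ier3 937 CPM. All 18 remained higher with library totals, with a median of 4.27.

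The promoters of the cytokine and Nfkbia groups were searched for the kappaB element in the 250 bases upstream of the start, on both strands (RefSeq, GRCm38.p6). The letters searched are those in capitals in the sequences shown, with any base allowed at the fifth position. It was found in 3 of the 14 cytokine genes with a promoter sequence (21.4%), in 2 of 14 genes of the NF-kappaB list (14.3%) and in 112 of 27025 genes in all (0.414%). Of the genes in the other lists, B2m, Csf1, Tlr3 and the cell cycle gene Birc5 also hold it. The promoters of these chemokine, cytokine and inhibitor genes are shown with 30 bases each, written along the strand of the gene, and capitals mark the element, which for Nfkbia reads on the opposite strand.
Cxcl2, chr5:90903791-90903820 (+): ccctgagctcaGGGAATTTCCctggtcccc
Cxcl1, chr5:90891163-90891192 (+): ccctgtactccGGGAATTTCCctggcccgg
Il6, chr5:30013059-30013088 (+): ttatcaaatgtGGGATTTTCCcatgagtct
Nfkb2, chr19:46305694-46305723 (+): ctggtattttcGGGACTTTCCtaagcagca
Nfkbia, chr12:55492658-55492687 (-): ctgactggcttGGAAATTCCCcgcgcctga
Cxcl1 and Cxcl2 share the same element letters, 62 to 71 and 88 to 97 bases before their starts, and the Il6 element lies 35 to 44 bases before its start. A match of letters is a description and no measure of binding. The NF-kappaB list was drawn up around this pathway, so its share is no test, and the cause of the expression levels was not tested. Ccl3 and Tnf had no match in this window. The AP-1 element TGANTCA occurred in 5 of the 14 cytokine promoters, Ccl9, Cxcl10, Il1a, Il1rn and Il6, and in 7.82% of all promoters. It was also in 5 of 11 purinergic promoters (45.5%) and 3 of 14 of the NF-kappaB list (21.4%), but in 0 of 16 immediate early promoters. The PU.1 element GAGGAAGT was in 0 of 12 homeostatic promoters and in 2.79% of all. It was in 3 of 14 promoters of the NF-kappaB list (21.4%) and 2 of 17 phagocytosis promoters (11.8%), but in 0 of 14 cytokine promoters.

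Immediate early genes, which many cells switch on within minutes of a stimulus or of dissociation, were abundant in microglia. Of 20 members 13 were higher and 1, Klf2, was lower, with a median of 1.86. With library totals 10 were higher and 2 lower, with a median of 1.02. Junb stood at 5708, 5537 and 5291 CPM against 625 to 678 CPM in the other cells, with a log2 fold change of 3.92 ± 0.03 (SE, edgeR adjusted p = 3.34e-28). Jun stood at 4005, 3948 and 3745 CPM and Atf3, a stress factor, at 1755, 1759 and 1725 CPM. Fos stood at 1892, 1947 and 1910 CPM against 1039 to 1076 CPM. Ier5, Btg2, Dusp1 and Egr1 had means of 1845, 1759, 1879 and 1747 CPM. Rgs1 was nearly absent from the other cells, at 314 against 4.98 CPM. Fosb, Klf6, Hspa1b and Egr3 were not called, and their signs turned negative with library totals.

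The contrast depended on the cell type compared. Against gated oligodendrocytes 19 of 20 immediate early genes were higher and 0 lower, where 23.9% of all genes were higher and 20.3% lower. Against gated astrocytes 20 of 20 were higher, where 22.8% of genes were higher and 23.5% lower. Against gated endothelial cells 6 were higher and 5 lower, where 19.0% of genes were higher and 19.0% lower. Fos had a mean of 3088 CPM in endothelial cells, and its log2 difference there was -0.19 ± 0.04. Klf2 had a mean of 218 CPM in microglia and 6267 CPM in endothelial cells. NF-kappaB genes, in comparison, were higher in 18 of 18 against each of the 3 gated groups, and cytokines in 16 of 17. The state of these genes before slicing and digestion cannot be told apart from their state after it, since no other preparation was measured.

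Within microglia the NF-kappaB, immediate early and cytokine sums rose together from cell to cell, whereas the homeostatic and interferon sums did not rise with them. Each of 2778 cells was thinned to 2000 UMIs, and 171 shallower cells were left out. The median cell then held 50.7 immediate early UMIs, 25.3 of the NF-kappaB list and 10.7 cytokine UMIs, against 148 homeostatic UMIs. Cytokine UMIs were absent from 2.43% of cells, and the top 5% of cells held at least 38.2. Across cells within a library, Spearman's rho was 0.645 to 0.696 between the NF-kappaB and immediate early sums and 0.517 to 0.539 between the cytokine and NF-kappaB sums. Between the cytokine and immediate early sums it was 0.332 to 0.385. The homeostatic sum had rho of -0.123 to -0.0627 with these 3 sums, and the interferon sum -0.112 to 0.0022. The sums share a fixed total of 2000 UMIs per cell, and the cells of 1 library share its preparation, so these values are a description.

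Detection in single cells showed how widely the cytokines were spread. At full depth Ccl4 was found in 73.2% ± 1.13 of microglia, Ccl3 in 70.6% ± 0.449, Il1a in 63.7% ± 0.836, Tnf in 57.4% ± 1.79 and Il1b in 28.1% ± 2.25 (SD, n = 3). Thinned to 2000 UMIs, the shares were 67.3% ± 0.980, 62.5% ± 0.689, 49.3% ± 0.830, 46.6% ± 0.848 and 22.4% ± 1.73. In gated astrocytes, oligodendrocytes and endothelial cells, whose median depths were 3368.5, 4766 and 3007 UMIs, the thinned shares of these 5 genes were all at or below 0.594%, the share found in cells that should lack these transcripts. Cxcl2 was found in fewer cells, 10.4% after thinning. Fos was in 80.7% of thinned microglia and in 84.0% of endothelial cells, but in 33.9% of oligodendrocytes.

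**Figure D3:**
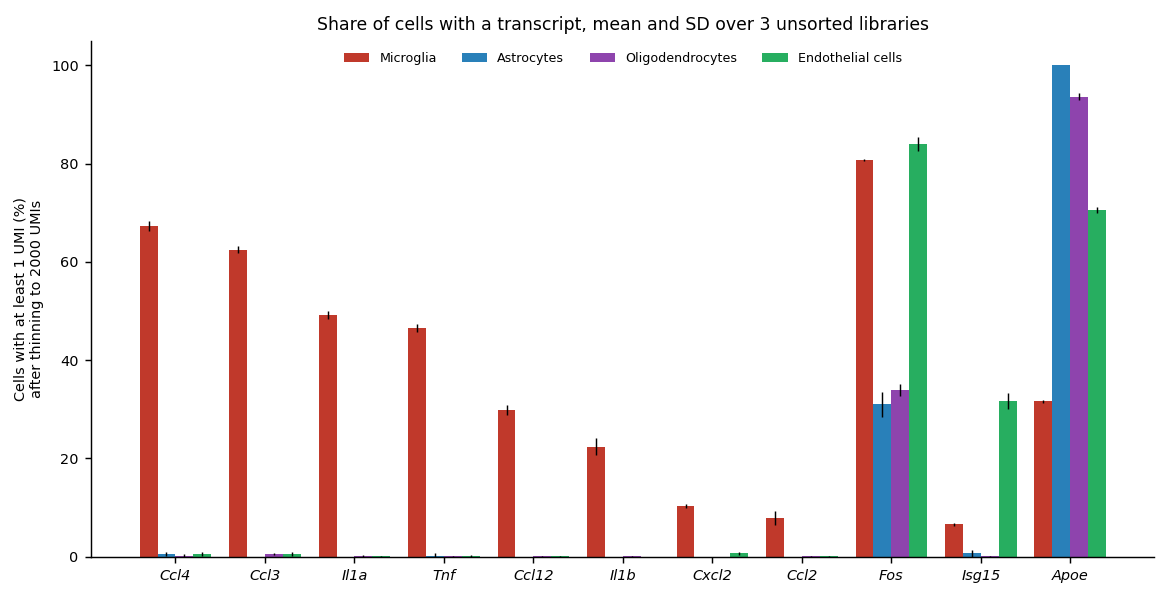
Share of cells with at least 1 UMI of each gene after thinning to 2000 UMIs, in microglia, astrocytes, oligodendrocytes and endothelial cells, with bars for the mean and error bars for the SD over 3 unsorted libraries. Chemokine and cytokine bars reached up to 67.3% in microglia and stayed near 0 in the other groups, whereas Apoe was in 31.6% of microglia and in every thinned astrocyte.

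A cell with one cytokine transcript more often held another in each of the 3 libraries, after thinning. Ccl4 was in 80.0%, 83.8% and 83.4% of the cells with Ccl3 and in 43.1%, 39.9% and 43.5% of those without it. Il1b was in 29.2% ± 2.48 of cells with Tnf and 16.5% ± 1.39 of cells without it (SD, n = 3). The 3 most variable cytokine genes by the ratio of variance to mean over thinned cells were Cxcl2 at 9.05, Ccl4 at 8.30 and Ccl3 at 6.90, whereas the median of 4366 genes was 1.02. For Cxcl2 the 5% of cells with the most UMIs held 80.4% of the transcripts, and for Ccl4 24.7%.

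**Figure D4:**
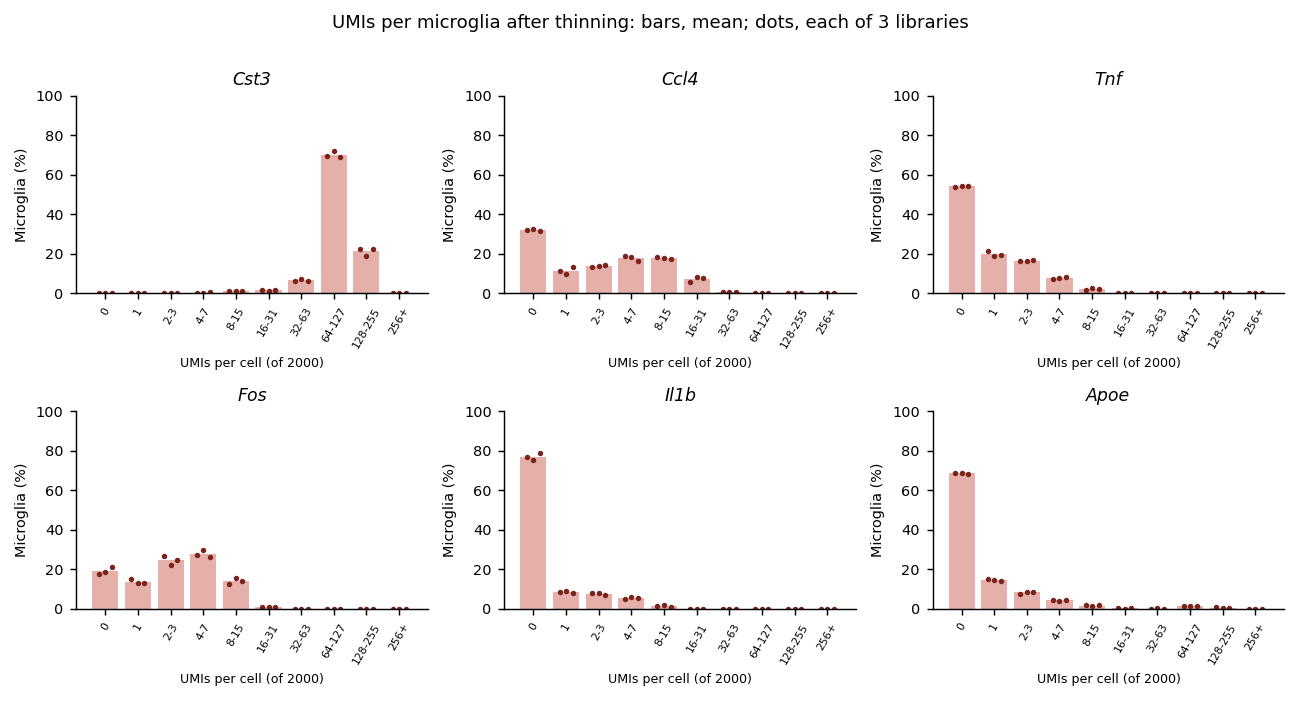
Share of thinned microglia by the number of UMIs per cell, of 2000, for 6 genes, with bars for the mean and dots for the 3 unsorted libraries. Cst3, Ccl4, Tnf, Fos and Il1b each filled neighbouring bins without an empty one between, and Apoe formed a large group near 0 and a small group at 64 or more. Of 72 cells with fewer than 32 Cst3 UMIs, 58 were among the macrophage-marker cells described below.

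Interferon response genes gave a different picture. Of 20 members 7 were higher and 3 lower, with a median of 0.14, close to the -0.13 of all genes, and with library totals 5 were higher and 8 lower. Bst2, which tethers virus particles, stood at 150, 148 and 137 CPM. Isg15 stood at 52.0, 46.1 and 46.5 CPM in microglia against 47.8 to 54.2 CPM in the other cells and was not called, with a log2 fold change of 0.76 that turned to -0.09 with library totals. Against endothelial cells 15 of 19 were lower and 1 was higher, and Ifitm3, a restriction factor for virus entry, stood at 48.9 CPM against 1252 CPM there. After thinning, 51.7% of microglia had no UMI of the list, and Isg15 was in 6.57% ± 0.352 of microglia and 31.7% ± 1.67 of endothelial cells (SD, n = 3).

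Genes of antigen presentation were higher in 15 of 15 tested cases against the other cells, with a median of 3.16. B2m, the shared light chain of class I molecules, stood at 1627, 1676 and 1755 CPM, and H2-K1 and H2-D1 had means of 861 and 789 CPM. Endothelial cells carried similar H2-K1 and H2-D1 levels, 761 and 966 CPM. Cd86, a costimulatory ligand, stood at 314, 342 and 332 CPM and was near 0 in the gated groups.

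Ligands of microglial receptors were measured in microglia and in excitatory neurons, and Cx3cr1 and Csf1r, the receptors of 3 of these ligands, are genes of the gate. Cx3cl1, the ligand of the marker gene Cx3cr1, stood at 6.05, 4.68 and 10.3 CPM in microglia and at 319, 323 and 318 CPM in excitatory neurons. Cd200 stood at 4.71, 4.93 and 4.55 CPM in microglia and at 164, 159 and 158 CPM in excitatory neurons, and its receptor Cd200r1 at 10.3, 9.85 and 12.7 CPM in microglia. Il34, a ligand of CSF1R, stood at 0.897, 1.97 and 1.92 CPM against 40.6, 38.0 and 38.4 CPM in excitatory neurons. Csf1, the other ligand, stood at 87.4, 80.1 and 82.4 CPM in microglia and had a mean of 4.37 CPM in excitatory neurons.

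The receptor Sirpa, which inhibits phagocytosis when bound by CD47, stood at 666, 672 and 648 CPM against 85.9 to 92.6 CPM in the other cells. Its ligand gene Cd47 stood at 182, 182 and 173 CPM, against a mean of 585 CPM in excitatory neurons, and was not called against the other cells. Of the 15 members tested, 8 were higher and 4 lower against the other cells, and Cx3cl1, Cd200, Il34 and Cd24a were the lower ones. The TGF-beta receptor gene Tgfbr1 had a mean of 802 CPM, and of its list with the CSF1 receptor ligands 12 of 16 tested were higher and 3 lower.

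Lipid genes were higher in 11 and lower in 4 of 20 cases, with a median of 1.68. Hpgds, Lpcat2 and Ltc4s, which make prostaglandin D2, platelet-activating factor and leukotriene C4, had means of 709, 644 and 475 CPM. Ch25h, which makes an oxysterol, had 1 UMI in all microglia.

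Apoe, the main lipid carrier of the brain, was not called in microglia as a whole. It stood at 1885, 1903 and 1968 CPM, below the 2262, 2185 and 2353 CPM of the other cells. On the TMM scale it differed by 0.60 ± 0.03 in log2 units (SE, edgeR adjusted p = 1.91e-14), which became -0.24 with library totals. The value was also negative in cells thinned to 2000 UMIs (-0.37) and with a gate of 10 marker UMIs (-0.14). With DESeq2 (0.58) and a gate of 3 (0.74) it stayed positive. The order of the group means was astrocytes at 16387 CPM, precursors at 8707, oligodendrocytes at 3251, microglia at 1919, endothelial cells at 825 and excitatory neurons at 11.01 CPM. Apoe had the highest ratio of variance to mean of 4366 genes, 98.2 ± 11.9 (SD, n = 3), against 9.63 for Cst3 in the next place. In thinned cells 1906 of 2778 had no Apoe UMI, 12 had 16 to 63 and 59 had at least 64 (21, 19 and 19 per library). Of these 59 cells, 58 carried at least 3 UMIs of the macrophage genes Mrc1, Pf4, F13a1, Ms4a7, Cd163 and Lyve1.

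The gate thus took in a small group of cells with markers of border macrophages, and 14 of 14 such markers were called higher in the gated cells as a whole. At least 3 UMIs of the 6 genes were found in 65 of the 2949 cells (2.20%), 23, 22 and 20 per library, while 63 cells had 1 or 2 and 2821 had none. Of the 14 markers, which include these 6, the 65 cells held at least 85.2% of the UMIs of 12, and 28.1% and 16.6% of those of Ms4a6c and Stab1. The study gave cells with C1qa and Pf4 the name activated microglia. The 65 cells held 76.0% ± 4.25 of the Apoe UMIs of all gated cells (SD, n = 3). The 2820 microglia with neither 3 UMIs of these genes nor 5 UMIs of another type's markers had 388 ± 45.2 CPM of Apoe, found in 40.9% of cells, and held 19.0% of the UMIs. With the 65 cells and those with 1 or 2 such UMIs left out, the Apoe log2 fold change against the other cells was -1.45.

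The 65 cells were compared with the 2821 gated cells without such UMIs in the same library, the 6 genes aside. Genes of the same cell type follow those 6, so the calls describe the cells. Of 9608 tested genes, 460 were higher (4.79%) and 633 lower (6.59%). Apoe stood at 56598, 54807 and 53321 CPM against 507, 361 and 522 CPM, a log2 fold change of 6.77 ± 0.08 (SE, edgeR adjusted p = 6.11e-42). Dab2, an endocytic adaptor, stood at 1831, 1763 and 1535 CPM against 5.45 to 9.80 CPM. Wfdc17 stood at 2990, 1500 and 1307 CPM against 0.472, 0 and 0.502 CPM. The lectin gene Cd209f was at least 2676-fold higher, Cbr2 at least 1482-fold, Cd209b at least 824-fold, Pla2g2d at least 574-fold and Gpx3 at least 490-fold. Each was set against 3 counts over the group without UMIs, in CPM without TMM factors.

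Homeostatic genes were lower in 15 of 16 cases, with a median of -3.58 against -0.18 over all genes. Siglech stood at 55.2, 158 and 87.7 CPM against 1073, 1106 and 1104 CPM, a log2 fold change of -3.58 ± 0.19 (SE, edgeR adjusted p = 2.42e-19). Sall1 and Sparc fell by 4.81 and 4.49 on the log2 scale, and Cst3 stood at 10423, 9912 and 8625 CPM against 52254 to 53590 CPM. Of 72 thinned cells with fewer than 32 Cst3 UMIs, 58 were among the 63 thinned macrophage-marker cells. The C1q chains were not called, with C1qa at 6348, 4974 and 5019 CPM against 6942 to 7230 CPM. Klk8 was at least 19.4-fold lower, St3gal5 at least 12.9-fold, Parvg at least 7.28-fold, Gm13889 at least 7.27-fold and Upk1b at least 6.17-fold, in CPM without TMM factors.

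The cytokine list was mixed in these cells, 6 higher and 4 lower of 17. Cxcl2, a neutrophil-attracting chemokine, stood at 2898, 2789 and 1693 CPM against 136 to 166 CPM, a log2 fold change of 3.87 ± 0.13 (SE, edgeR adjusted p = 3e-26). Ccl7, a monocyte-attracting chemokine, stood at 340, 237 and 254 CPM against 1.26 to 2.12 CPM. Ccl2, Ccl12, Osm and Cxcl1 were the other higher members. Tnf, Il1a, Ccl3 and Ccl4 were lower, with Tnf at 524, 167 and 167 CPM against 582 to 600 CPM and a log2 fold change of -1.22. Il1b was at 598, 342 and 202 CPM against 289 to 386 CPM, and its log2 difference was 0.01 ± 0.18. The 65 cells held 82.3% of the Ccl7, 79.1% of the Cxcl1 and 30.96% of the Cxcl2 UMIs of all gated cells, but 1.30% of the Tnf and 0.956% of the Ccl4 UMIs.

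Interferon genes were higher in 10 of 17 and lower in none, with a median of 2.41. Ifitm3 stood at 800, 807 and 991 CPM against 20.1 to 29.6 CPM, and Bst2 at 635, 895 and 711 CPM against 121 to 135 CPM. NF-kappaB genes were lower in 9 of 18 and higher in none. Immediate early genes were higher in 5 and lower in 3 of 20. With 20 to 23 cells per library, these counts moved when a library was left out, to 278 to 311 higher and 272 to 373 lower genes in all, and DESeq2 called 336 genes lower.

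**Figure D5:**
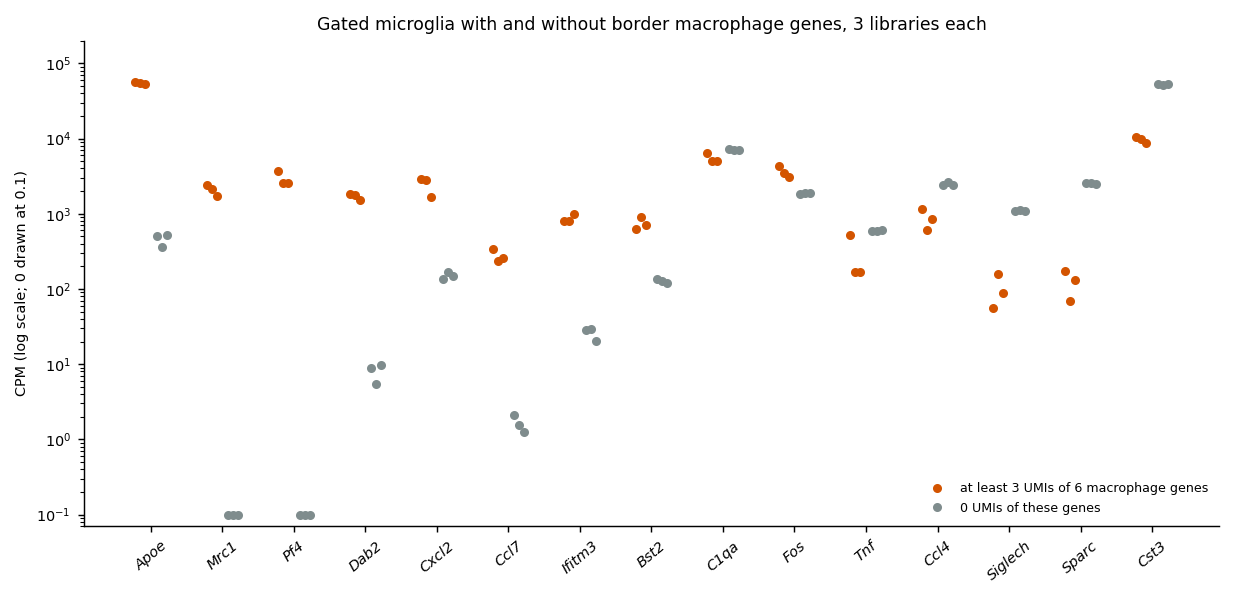
Level of 15 genes in gated cells with at least 3 UMIs of 6 border macrophage genes and in gated cells with 0 such UMIs, in CPM on a log axis with 1 point per library. Apoe, Dab2, Cxcl2, Ccl7, Ifitm3 and Bst2 lay higher in the first group, Siglech, Sparc and Cst3 lay lower, and C1qa differed by -0.53 on the log2 scale.

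Genes of the disease-associated state, which microglia take on near plaques and degenerating cells, were mostly rare. Of 17 tested against the other cells 9 were higher and 5 lower, and 7 and 7 with library totals. Cd9, a tetraspanin, was the member with the highest level after Apoe, at 1035, 1060 and 1039 CPM. Igf1 had 122 UMIs, of which 92.6% were in the macrophage-marker cells. Single cells carried much of some members. Gpnmb had 97 UMIs in 4 cells, 90 of them in 1 cell of replicate 3, Lgals3 had 75 UMIs in 6 cells with 65 in 1 cell, and Fabp5 had 298 UMIs with 107 in 1 cell. The macrophage-marker cells held 92.8% of the Gpnmb, 86.7% of the Lgals3 and 39.6% of the Fabp5 UMIs. Without replicate 3 the log2 fold changes of Gpnmb and Lgals3 were -3.24 and -0.07. Spp1 had 18 UMIs in 7 cells and Lpl 31 in 21 cells.

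Most cell cycle genes were near the detection limit. The 10 genes summed to 53.1 to 69.5 CPM in microglia and 58.1 to 76.5 CPM in the other cells. Mki67 had 19 UMIs in 6 cells, 14 of them in 1 cell, and its log2 fold change of 0.34, which was not called, turned to -0.50 with library totals. Of thinned cells, 89.6% had no UMI of the 10 genes. Cdk1 was the 1 member called higher, at 1.57, 4.68 and 1.92 CPM against 0.826 to 2.02 CPM, with overlapping libraries. The neutrophil and monocyte markers S100a8, S100a9, Chil3 and Retnlg had no UMI in the microglia of any unsorted library, and Ccr2, the monocyte chemokine receptor, stood at 5.16, 4.43 and 4.79 CPM and was called higher, the 1 of 2 tested blood myeloid markers that was, with a log2 fold change of 4.65. Of 3 lymphocyte markers tested, Cd79b was higher (mean 19.8 CPM, log2 fold change 5.35) and Trbc2 lower (mean 2.38 CPM, -3.04). Astrocyte markers were higher in 1 case, Slc1a3 with a log2 fold change of 1.16, and lower in 6 of 10. Of the markers of oligodendrocytes, precursors, endothelial and mural cells, 8 of 8 in each list were lower, and 9 of 10 neuronal markers were lower with Meg3 highest at a mean of 164 CPM.

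In the sorted library, which was enriched for EGFP-positive cells, the same rule found 58 microglia among 1791 cells (3.24%, exact 95% binomial interval 2.47 to 4.17%). Their median was 7208.5 UMIs and 2.99% mitochondrial UMIs, against 4251 and 7.15% in the unsorted libraries. Tnf stood at 549 CPM, Ccl4 at 1133, Il1b at 331 and Fos at 2344 CPM. Cst3 stood at 21298 CPM, below the unsorted range, and the marker Cx3cr1 at 4938 CPM. Apoe stood at 1220 CPM, and 1 of the 58 cells had 3 or more macrophage UMIs. This is 1 library of 3 pooled mice with another depth, so no test was made.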

How the data were processed

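Single-cell 3' RNA-seq (10x Genomics v3) was made from the vmPFC of 3 unsorted mice, 1 library per mouse, and from a pool of 3 FAC-sorted mice. The authors deposited raw UMI counts per cell and gene made with Cell Ranger 3.0.2 (per the file headers) on mm10, without normalization, and a list of excitatory neurons from Seurat 3.1.4. The deposited counts cover 31053 genes, and the handling of intronic reads is not given in the sources used here. Transcripts of near-identical copies such as Hspa1a and Hspa1b, or H2-K1 and H2-D1, may be shared between them. The members, the gene lists and the rule were chosen with earlier results of these data known.

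Kept cells had 1000 to 60000 UMIs, less than 20% of them mitochondrial, from 500 to 8000 genes, and the gate stated in the report was applied. Gated astrocytes, endothelial cells, oligodendrocytes and precursors had at least 5 UMIs of their markers and at most 2 of any other set (462, 1781, 1643 and 1163 cells, beside 2503 microglia under the same caps). Within each library, counts were added up over the cells of a group. Sums were tested with edgeR 4.0.16 in R 4.3.3 (quasi-likelihood F test, TMM factors, filterByExpr, library as a block, since both sums come from the same mouse), with p-values adjusted by Benjamini-Hochberg over all tested genes. A call needed an adjusted p below 0.05 and a change of 1 or more in log2 units. Some genes that the rule below would name are not reported here. Gate genes and the viral barcode feature were not tested. The biological coefficient of variation left after the library block was 0.0319, or 0.0942 with the macrophage-marker cells. It describes how the difference between the sums of a library varied over 3 mice, not how levels varied between mice. DESeq2 1.42.0, other factors, gates, filters, thinning to 2000 UMIs (python 3.11.15, numpy 2.4.6) and leaving out each mouse were alternatives. The testing script was tested on simulated data. Binomial intervals are exact, at 95%, and with the floors of 3 counts cover counting error only. Bounds set on these floors were in CPM without TMM factors. Of 395 list genes 391 were in the files, and Clec7a, Lrrc33, Pdl1 and Sting1 were not analysed here under these names, Lrrc33 and Sting1 being listed as Nrros and Tmem173.

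Named genes were, per list, the 4 highest by CPM and those with the highest and lowest fold change, all members of the immediate early, cytokine, border macrophage, ligand and complement lists, the 12 highest and 5 lowest called genes outside the lists at 100 CPM or more, the 8 highest and 5 lowest of the macrophage comparison and the 10 most variable genes. Igf1, Gpnmb, Lgals3, Fabp5, Spp1, Lpl, Mki67, Spi1, Sall1, Cdk1, Meg3, Nfkb2 and the neutrophil markers, and any other list member outside this rule, were named after their values were seen or by a promoter match.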

Additional observations from a re-analysis of the deposited data

Results flagged for a closer look

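A transcript of the viral barcode, which belongs to no comparison of the report, was found in 3.70%, 3.55% and 4.48% of the microglia of unsorted replicates 1, 2 and 3 (39, 34 and 42 cells) and in 20.7% of the 58 microglia of the sorted library (12 cells, exact 95% binomial interval 11.2 to 33.4%). These shares lay above the 0.285%, 0.314%, 0.320% and 5.17% that a count of 0 allows, which is why they are listed here. There was no uninjected animal to set the background. The share was 3.91% ± 0.497 (SD, n = 3) in unsorted microglia, 3.90% ± 0.196 in gated oligodendrocytes and 58.8% ± 2.03 in excitatory neurons, whose median depths were 4251, 4766 and 22262 UMIs. At 2000 UMIs per cell it was 1.76% ± 0.187 in microglia, 1.28% ± 0.358 in oligodendrocytes and 32.7% ± 1.17 in excitatory neurons, and in the sorted library 2 of 58 microglia (3.45%, interval 0.420 to 11.9%). Of the 115 unsorted microglia with a barcode transcript, 2 had at least 5 UMIs of it. The full-depth shares in gated precursors, endothelial cells and astrocytes were 3.57% ± 0.997, 2.90% ± 0.790 and 2.14% ± 1.35, at median depths of 4102, 3007 and 3368.5 UMIs. The source of the transcript in microglia was not tested. In the sorted library 1 of 13 gated oligodendrocytes (7.69%, interval 0.195 to 36.0%) held the transcript, too few cells to set beside the 58 microglia.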

How the results depend on the processing

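Of 657 gene results, 563 kept their direction and call under every alternative run. Calls of genes against the other cells, astrocytes, oligodendrocytes and endothelial cells stayed within 1.5 times under DESeq2, no filter and no replicate block. Library totals without scaling factors, added after the data were seen, gave 1828 genes higher against the other cells, 1979 higher and 4846 lower against astrocytes and 3917 lower against endothelial cells. For the macrophage-marker cells DESeq2 gave 336 genes lower and left 1118 adjusted p-values as NA, and leaving out a replicate gave 278 to 311 higher and 272 to 373 lower, with fewer cells in the fit. Without the replicate block, that is without pairing the sums of a library, 495 were higher and 728 lower, and 3168 and 5002 against the other cells. The microglial share was 15.4% and 14.6% with gates of 3 and 10 marker UMIs. Thinned to 2000 UMIs, the shares of microglia with a UMI were 46.6% (Tnf), 49.3% (Il1a), 22.4% (Il1b), 62.5% (Ccl3), 67.3% (Ccl4) and 31.6% (Apoe), by construction of the lower depth. Log2 fold changes against the other cells that reversed with only cells without UMIs of the 6 macrophage genes were those of Apoe (-1.45), Cxcl1 (-0.35), Dab2 (-1.15) and Gpnmb (-1.79), and also Mrc1 (-8.50) and Pf4 (-8.75), which this choice of cells sets to 0 UMIs by construction. Gpnmb was also -1.46 with DESeq2, -2.35 with a gate of 10 and -0.30 thinned, and Lgals3 -0.74 with a gate of 10. With each replicate left out in turn, values against the other cells ran from -3.24 to 2.38 (Gpnmb), -0.065 to 3.54 (Lgals3) and -2.23 to 1.14 (Mki67), against astrocytes from -3.43 to 3.43 (Gpnmb), -4.98 to 0.0093 (Nt5e) and -5.21 to 0.49 (Spp1), and in macrophage-marker cells from -1.36 to 0.83 (Cxcl10). Leaving out cells with markers of other types, also added after the data were seen, was run against the other cells and reversed no gene there. The causes were not tested. Il10 and Mki67 had 12 and 19 UMIs in all, so their values rest on few counts.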
